A study of Mus musculus with 16 samples.

Results

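The levels of 10 genes that mark fibroblasts were followed in the apex of the mouse heart, out of 55487 genes in the deposited table. The genes were listed by name and role, with earlier results of these data known, and no threshold on a measured value was applied. They comprise 6 genes of the resident fibroblast (Pdgfra, Tcf21, Dpt, Pi16, Gsn and Dpep1) and 4 genes linked to its activation (Meox1, Cthrc1, Fap and Thy1). All 10 were present in the table, and all 10 passed the filter on low counts. Cthrc1 passed it through its level after surgery, since no sham library held more than 9 of its counts.

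The 16 libraries each came from 1 male mouse of 25 to 30 g, and the ages were not given in the sources used here. Genotypes were WT, called Ctrl here, and CARDINAL-KO, called KO, made with CRISPR/Cas9 in the germ line to delete the long noncoding RNA gene Cardinal (Gm12295). Each genotype had 4 mice with transverse aortic constriction (TAC), in which a ligature narrows the aorta around a needle so that the heart must pump against a higher pressure, and 4 with a sham operation without the ligature. Hearts were taken 4 weeks after surgery in all 4 groups. The question put to these libraries was how loss of Cardinal alters the RNA response of the heart to pressure overload.

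Fibroblasts lie between cardiomyocytes and build the collagen network of the heart. In the unstressed heart they carry the PDGF receptor alpha and the transcription factor TCF21, and they keep a quiet matrix program. Under pressure overload a share of them turns to a matrix-producing, partly contractile state, in which factors such as MEOX1 and secreted proteins such as CTHRC1 and periostin are made. Whole tissue was sequenced here, so fewer cells of a type and less RNA per cell cannot be told apart.

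Library totals ranged from 53169437 to 79404714 counts, and mitochondrial genes took 26.8% to 28.8% of them in sham and 21.9% to 27.0% in TAC libraries, with no overlap in KO hearts (27.1% to 28.4% against 23.4% to 25.1%). The part of this shift in the members' changes was not tested. The unit of level is CPM, a gene's count relative to its library total after TMM scaling. The deleted gene was at 3.54 ± 0.280 CPM in Ctrl sham and 0.465 ± 0.119 in KO sham (SD, n = 4). The other 3 libraries labelled KO TAC held 0.276 to 0.371 CPM of it, but the library labelled KO TAC 4 held 4.55 CPM (377 counts, exact Poisson 95% interval 4.10 to 5.03, counting error only), which is within the Ctrl TAC range of 2.69 to 8.02. This library goes against its label, and the members' test results and separation for the KO TAC group are therefore also given without it. Group means, levels per kilobase, ratios to Pdgfra and likeness between genes include it. By animal number, 4 libraries start with 25, namely 3 of Ctrl TAC (2, 3 and 4) and the one labelled KO TAC 4, whereas 12 start with 3, and what the numbers stand for is not given in the labels. All 8 cardiomyocyte markers examined, which define heart muscle, were detected, as were 8 endothelial and 8 macrophage markers.

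In sham hearts the 10 genes spanned a wide range of level per kilobase of exon. In Ctrl sham, Gsn, which encodes the actin-severing protein gelsolin and is also made by cardiomyocytes, stood at 241 CPM per kb. Dpt, encoding the matrix protein dermatopontin, followed at 31.3 CPM per kb, then the membrane dipeptidase gene Dpep1 at 18.5 and the peptidase inhibitor gene Pi16 at 5.58. Each of these was separated from the next in all libraries. Meox1 (2.95 CPM per kb), Pdgfra (2.83), Thy1 (2.44) and Tcf21 (2.00) formed a run in which every gene overlapped its neighbour. Fap, a membrane serine protease gene, was lower at 0.675 CPM per kb, and Cthrc1 was lowest at 0.0655. KO sham hearts had the same order.

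After TAC the middle of this order was rearranged. In Ctrl TAC, Pi16 reached 14.9 CPM per kb and overlapped Dpep1, which stood at 14.4. In KO TAC, Pi16 was at 18.8 CPM per kb and lay above Dpep1 in all libraries, while Meox1 at 11.9 overlapped Dpep1 at 12.0. Cthrc1 at 0.941 CPM per kb overlapped Fap at 0.901 in KO TAC, having been the lowest of the 10 genes in the other 3 groups.

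**Figure D1:**
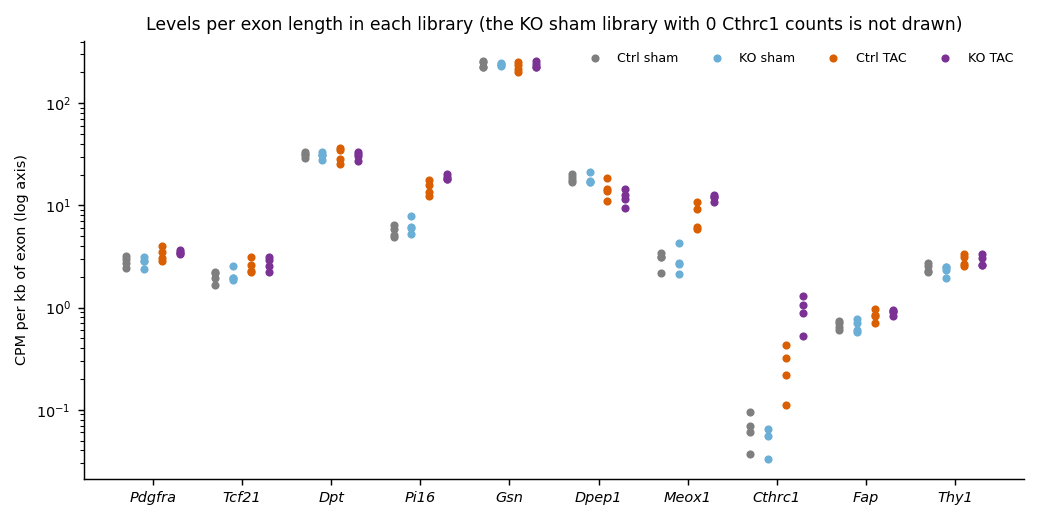
CPM per kilobase of exon (log axis) of the 6 resident and 4 activation genes in each library, colored by group; the KO sham library with 0 Cthrc1 counts is not drawn. Gsn lies highest in all libraries, Pi16 and Meox1 climb through the middle of the order after TAC, and Cthrc1 moves from 0.0655 CPM per kb in Ctrl sham to 0.941 in KO TAC (group means).

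Promoter sequence was held for the 6 resident genes in RefSeq (GRCm38.p6). The 250 bases before the start sites of Pdgfra and Dpep1 are shown because these resident markers parted after TAC in KO hearts, where Pdgfra rose and Dpep1 fell. Capitals mark matches on either strand to any of 6 motifs: TGANTCA for AP-1, GGAATG for TEAD factors, TATAAA as the TATA box, CAGCTG as an E-box, GGGCGG as the GC box, and the CArG box. No match overlapped another in these windows.
Pdgfra, chr5:75152001-75152250, plus strand: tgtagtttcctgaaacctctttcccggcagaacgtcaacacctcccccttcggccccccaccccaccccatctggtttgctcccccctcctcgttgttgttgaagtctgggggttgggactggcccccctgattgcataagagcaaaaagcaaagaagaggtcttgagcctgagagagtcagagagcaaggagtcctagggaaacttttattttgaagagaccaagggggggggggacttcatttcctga
Dpep1, chr8:123185985-123186234, plus strand: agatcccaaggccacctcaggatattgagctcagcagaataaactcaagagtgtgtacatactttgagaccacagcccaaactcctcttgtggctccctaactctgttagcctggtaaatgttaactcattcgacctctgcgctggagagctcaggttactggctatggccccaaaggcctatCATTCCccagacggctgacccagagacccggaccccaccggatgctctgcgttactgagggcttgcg
The Pdgfra window held no match, nor did those of Tcf21 and Pi16. The Dpep1 window held 1 TEAD match 67 to 62 bases before the start, a motif found in 12.6% of 32851 promoter windows of this length. CAGCTG, found in 13.0% of them, occurred in the window of Dpt and in 2 of the 3 windows of Gsn. These matches describe letters only, and no binding was measured.

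TAC in Ctrl hearts raised the resident gene Pi16 and the activation gene Meox1, and lowered no member. Cthrc1 also passed, but it entered the test through its level after TAC, so that only a rise could be called. With it, 3 of the 10 genes passed. The other 5 of the 6 resident genes did not pass the test. Across all 18275 genes tested, 20.0% passed at an adjusted p under 0.05 (edgeR quasi-likelihood test, Benjamini-Hochberg), 10.4% higher and 9.60% lower.

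Pi16 stood at 32.4, 31.5, 37.2 and 40.8 CPM in Ctrl sham 1 to 4 and at 113.8, 78.3, 86.6 and 100.6 in Ctrl TAC 1 to 4. All TAC libraries were above all sham libraries. The log2 fold change was 1.42 (SE 0.13, edgeR adjusted p = 1.87e-06). PI16 protein is a marker of adventitial fibroblasts, the cells around vessels.

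Meox1, a homeobox transcription factor gene, stood at 4.80, 7.00, 7.61 and 6.92 CPM in Ctrl sham and at 20.3, 13.6, 13.1 and 24.2 in Ctrl TAC. The groups did not overlap, although Ctrl TAC fell into a lower pair (replicates 2 and 3) and a higher pair (1 and 4). On the log2 scale the change was 1.44 (SE 0.23, edgeR adjusted p = 0.000457).

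Cthrc1, which encodes a secreted protein of injured matrix, was near its floor in sham hearts. It had 7, 7, 9 and 3 counts in the 4 Ctrl sham libraries and 29, 12, 45 and 25 in Ctrl TAC, or 0.104 ± 0.0385 against 0.430 ± 0.216 CPM (SD, n = 4). The lowest TAC library, Ctrl TAC 2, was close to the highest sham library (0.179 against 0.152 CPM). The log2 fold change was 2.01 (SE 0.50, edgeR adjusted p = 0.00795), and the ratio of summed levels was 4.02 with an exact 95% interval of 2.60 to 6.42 for counting error only.

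The other 7 genes did not pass in Ctrl hearts. Pdgfra was at 28.4 ± 3.28 CPM in sham and 33.7 ± 5.08 after TAC (log2 change 0.25, SE 0.10, adjusted p = 0.0955), and Tcf21 at 4.71 ± 0.609 and 5.99 ± 0.940 (0.34, adjusted p = 0.0903). Dpep1 was at 46.1 ± 3.76 and 35.8 ± 7.59 CPM (-0.36, adjusted p = 0.0900). Fap (0.31, adjusted p = 0.0680) and Thy1 (0.26, adjusted p = 0.128) had small positive values, and their groups overlapped. Dpt (-0.01) and Gsn (-0.09) had the values nearest 0.

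Some of these results turned on single libraries. Ctrl TAC 1 had the highest level of 6 of 6 resident genes in its group, and Ctrl TAC 2 had the lowest of 5 of them. Without Ctrl TAC 2, 5 members passed, as Pdgfra (adjusted p = 0.0340) and Fap (0.0296) joined. Without Ctrl sham 3, Pdgfra passed (adjusted p = 0.0494), and without Ctrl TAC 1, Dpep1 did (log2 change -0.51, adjusted p = 0.0142). Within the animals whose numbers start with 3, which hold only Ctrl TAC 1 of this group, the difference of mean log2 CPM from sham was 0.51 for Pdgfra, 0.64 for Tcf21, 0.00 for Dpep1, 1.69 for Pi16, 1.64 for Meox1 and 2.04 for Cthrc1. With a term for animal numbers starting with 25, Pdgfra (log2 change 0.40, adjusted p = 0.0317) and Tcf21 (0.62, 0.0107) passed.

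TAC in KO hearts moved 8 of the 10 genes, 7 higher (Cthrc1 among them, which again was open only to a rise) and 1 lower, against a background of 34.3% of all genes tested (17.8% higher, 16.5% lower). All 4 activation genes rose, as did Pdgfra, Tcf21 and Pi16 of the resident genes, whereas Dpep1 fell. Dpt and Gsn did not pass. Without the library labelled KO TAC 4 the same 8 genes passed, in the same directions.

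Pi16 was at 39.2, 38.3, 50.0 and 33.1 CPM in KO sham and at 114.5, 129.6, 115.4 and 119.9 in KO TAC. The 4 KO TAC libraries lay close together and far above sham. On the log2 scale the change was 1.58 (SE 0.13, edgeR adjusted p = 1.97e-07), and leaving out the library labelled KO TAC 4 gave 1.58.

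Meox1 was at 5.91, 6.14, 9.55 and 4.73 CPM in KO sham and at 26.7, 24.2, 26.9 and 28.3 in KO TAC. The KO TAC libraries again lay close together, and the one labelled KO TAC 4 was highest. In edgeR the log2 fold change was 2.01 (SE 0.23, adjusted p = 1.08e-05), and leaving out the library labelled KO TAC 4 gave 1.98.

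Cthrc1 had 0, 5, 6 and 3 counts in KO sham and 56, 128, 109 and 117 in KO TAC, or 0.832, 2.08, 1.67 and 1.41 CPM. Every KO TAC library was above every KO sham library. The log2 fold change was 4.60 (SE 0.52, edgeR adjusted p = 2.43e-06), and the ratio of summed levels was 24.9 (exact 95% interval 14.7 to 45.9, counting error only). The library labelled KO TAC 4 did not set this value, since the ratio without it was 25.4 (14.9 to 47.0).

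Dpep1 was the only member to fall in KO hearts. It was at 41.8, 41.7, 43.2 and 52.6 CPM in KO sham and at 36.1, 31.3, 23.6 and 28.4 in KO TAC, so that every KO TAC library was below every KO sham library. In edgeR the log2 change was -0.59 (SE 0.14, adjusted p = 0.00509). Leaving out the library labelled KO TAC 4 gave -0.56 (adjusted p = 0.0161). DPEP1 cleaves dipeptides and converts leukotriene D4.

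The remaining rises were small. Fap went from 3.75 ± 0.521 to 5.10 ± 0.274 CPM (SD, n = 4), with no overlap (log2 change 0.44, edgeR adjusted p = 0.00585). Thy1, which encodes a surface glycoprotein also carried by T cells and neurons, went from 6.94 ± 0.789 to 8.72 ± 1.14 CPM (0.33, adjusted p = 0.0340). The summed level of 8 T cell markers lay between 1.64 and 3.62 CPM in the 16 libraries, and 0 of the 7 tested passed. Of 5 Schwann cell and neuron markers tested, 1 rose and 3 fell in KO hearts. The summed level of this list was 8.01 to 9.89 CPM in KO sham and 4.37 to 6.81 in KO TAC. It was 7.66 to 9.33 CPM in Ctrl sham and 5.37 to 14.0 in Ctrl TAC, where the median was 5.91. The part of these cells in the Thy1 change was not tested.

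Pdgfra went from 28.1 ± 3.00 to 34.8 ± 1.27 CPM in KO hearts (log2 change 0.31, edgeR adjusted p = 0.0234), and Tcf21 from 4.85 ± 0.736 to 6.31 ± 0.923 (0.38, adjusted p = 0.0401). The Tcf21 groups overlapped. These calls and that of Thy1 rested on few libraries: of 16 analyses that each left out 1 library, 3 lost Pdgfra, 6 lost Tcf21 and 4 lost Thy1, and none lost Pi16, Meox1, Cthrc1, Dpep1 or Fap. Leaving out the library labelled KO TAC 4 gave 0.33 for Pdgfra (adjusted p = 0.0332), 0.46 for Tcf21 (0.0179), 0.42 for Fap (0.0178) and 0.38 for Thy1 (0.0252). Without KO TAC 1 or without KO TAC 2, 5 members passed instead of 8. With a term for animal numbers starting with 33, which only sham animals carry, Pdgfra (adjusted p = 0.179) and Tcf21 (0.240) did not pass.

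**Figure D2:**
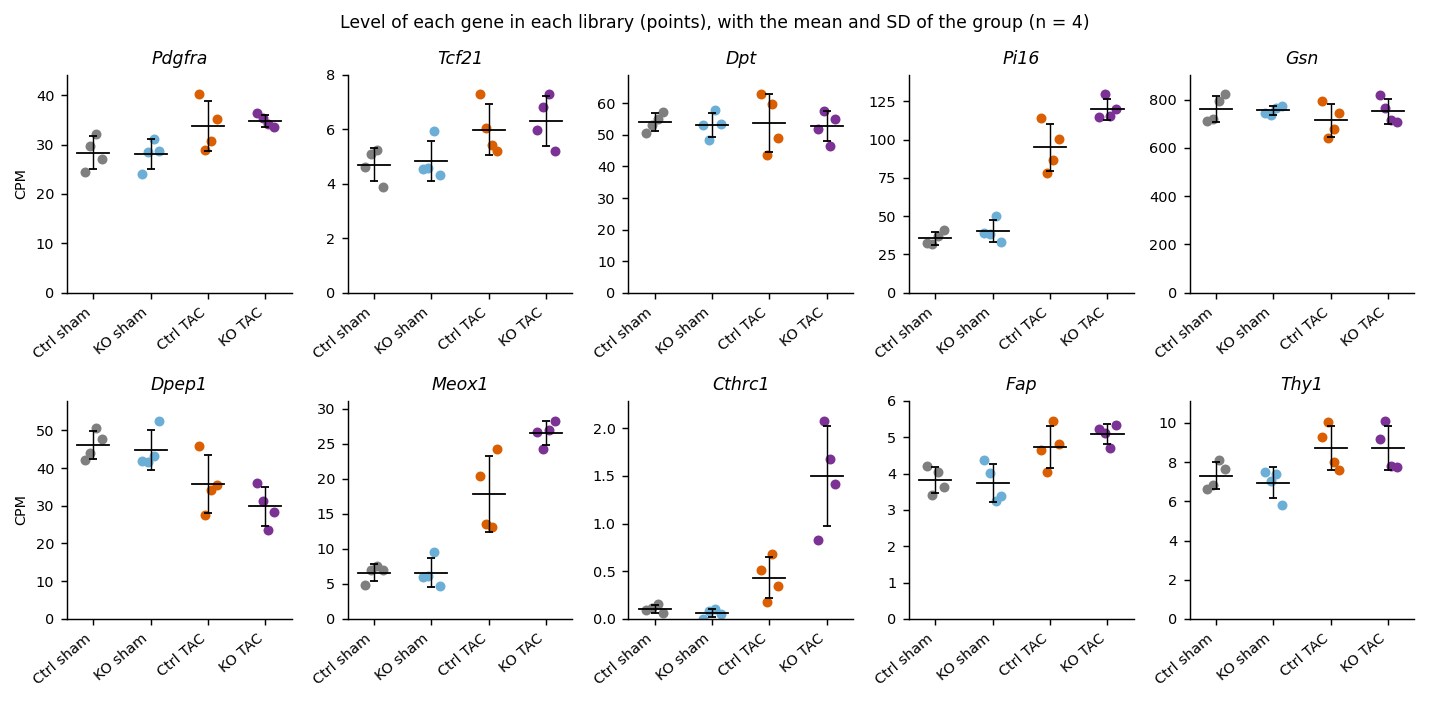
CPM of each of the 10 genes in each library (points), with group mean and SD (n = 4 libraries per group). Pi16, Meox1 and Cthrc1 separate TAC from sham in both genotypes, Dpep1 separates them in KO hearts but overlaps in Ctrl hearts, and the 16 libraries range from 43.6 to 62.9 CPM for Dpt and from 640 to 822 CPM for Gsn.

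By their separation rather than the test, 3 of 10 members had no overlap between TAC and sham in Ctrl hearts, where 20.5% of all genes did (10.5% higher, 9.97% lower). In KO hearts 7 of 10 had none, where 34.6% of all genes did (18.0% higher, 16.6% lower). The 7 were Pdgfra, Pi16 and the 4 activation genes, all higher, and Dpep1, which was lower. Without the library labelled KO TAC 4, Tcf21 joined them (7 higher, 1 lower). Fewer libraries overlap less readily, and the share of all genes for that smaller set was not computed. Cthrc1 is in each of these counts of members, and here too it was open only to a rise, since it passed the filter through its level after TAC.

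Dpt and Gsn had the smallest changes with TAC. Dpt had 54.0 ± 2.92 CPM in Ctrl and 53.2 ± 3.85 in KO hearts after sham, and 53.8 ± 9.10 in Ctrl and 52.8 ± 4.86 in KO hearts after TAC (SD, n = 4). In the same order Gsn had 762 ± 55.2, 755 ± 16.9, 714 ± 68.1 and 751 ± 52.1 CPM. Neither passed in any comparison. Over the same groups the summed level of 8 cardiomyocyte markers, cells that also make gelsolin, was 53896 to 62168 CPM in Ctrl sham, 55035 to 60090 in KO sham, 47653 to 52285 in Ctrl TAC and 40898 to 43680 in KO TAC. Of these markers, 5 fell with TAC in Ctrl hearts and 6 in KO hearts. Every member's CPM is a share of a total in which cardiomyocyte transcripts weigh heavily, and the part of this drop in the members' rises was not tested.

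To set the resident genes against each other within a library, each was divided by Pdgfra. Pi16 over Pdgfra was 0.32 on the log2 scale in Ctrl sham, 0.51 in KO sham, 1.49 in Ctrl TAC and 1.78 in KO TAC (group means). Dpep1 over Pdgfra went the other way, at 0.70, 0.67, 0.08 and -0.24. Gsn over Pdgfra was 4.75, 4.76, 4.41 and 4.43. Dpt over Pdgfra was 0.93, 0.93, 0.67 and 0.60, and Tcf21 over Pdgfra lay between -2.59 and -2.47. Among these resident genes, Pi16, Dpep1 and Gsn had no TAC library that overlapped a sham library in this ratio. In CPM itself Gsn overlapped in both genotypes (log2 change with TAC -0.09 in Ctrl and -0.01 in KO hearts) and Dpep1 in Ctrl hearts. The divisor Pdgfra had log2 changes of 0.25 and 0.31, so a gene without a change of its own falls in this ratio. The share of all genes without overlap in such a ratio was not computed. Meox1 over Pdgfra was -2.12, -2.14, -0.96 and -0.39, also without overlap between sham and TAC libraries. Fap over Pdgfra stayed between -2.91 and -2.77 and Thy1 over Pdgfra between -2.02 and -1.95. No test was made on these ratios, which share the Pdgfra value of each library.

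**Figure D3:**
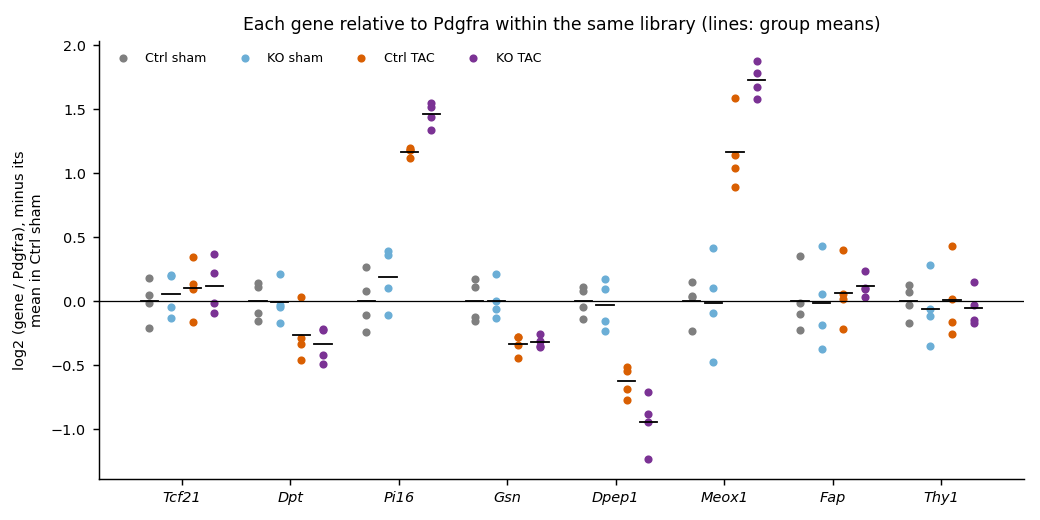
Log2 ratio of 8 genes to Pdgfra in the same library, with the Ctrl sham mean of that ratio subtracted; points are libraries and lines are group means. After TAC, Pi16 and Meox1 lie above 0 in all 8 libraries, Dpep1 and Gsn lie below 0 in all 8, and Tcf21, Fap and Thy1 scatter around 0. In CPM itself, Gsn overlapped between sham and TAC in both genotypes.

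Between KO and Ctrl sham hearts, none of the 10 members passed, and 0% of all genes did. The DESeq2 Wald test called 3 genes of the whole table, edgeR had 479 at an unadjusted p under 0.05, and the deleted gene itself had an unadjusted p of 0.00358 and did not pass after adjustment. The largest member difference was in Cthrc1 (log2 change -0.80, SE 0.65), which rested on 26 counts in Ctrl sham and 14 in KO sham, and the next was in Pi16 (0.18, SE 0.13). No member had groups without overlap, against 1.78% of all genes (0.941% higher, 0.837% lower).

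After TAC, 1 of the 10 members differed between KO and Ctrl hearts, against 2.68% of all genes. Cthrc1 was higher in KO TAC, at 1.50 ± 0.523 CPM against 0.430 ± 0.216 (SD, n = 4). The lowest KO TAC library (0.832 CPM) lay above the highest Ctrl TAC library (0.684 CPM). The log2 fold change was 1.80 (SE 0.40, edgeR adjusted p = 0.0259), or 1.83 (adjusted p = 0.0413) with the library labelled KO TAC 4 left out, and the ratio of summed levels was 3.48 (exact 95% interval 2.82 to 4.34, counting error only).

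This call was fragile. It was lost without Ctrl TAC 2 (edgeR adjusted p = 0.0765), without KO TAC 2 (0.0851) and without KO TAC 3 (0.0842). It was also lost in a fit of the 8 TAC libraries alone (0.0520) and with a term for animal numbers starting with 25 (log2 change 1.70, adjusted p = 0.123). Of 16 analyses that each left out 1 library, 13 kept it. RLE size factors (edgeR adjusted p = 0.0256), no filter (0.0278) and a term for numbers starting with 33 (0.0281) kept it too. The DESeq2 Wald test gave a log2 change of 1.80 (adjusted p = 0.00101). Within the number series the difference in mean log2 CPM was 1.90 in animals starting with 25 (the library labelled KO TAC 4 against 3 Ctrl TAC) and 1.43 in those starting with 3 (3 KO TAC against Ctrl TAC 1), beside 1.79 over all libraries. The genotype at TAC and the number series are nearly the same split, so their parts cannot be told apart.

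Pi16 had no overlap either, with or without the library labelled KO TAC 4, since the lowest KO TAC library stood at 114.5 and the highest Ctrl TAC library at 113.8 CPM, but it did not pass (log2 change 0.34, SE 0.12, edgeR adjusted p = 0.156). With all libraries, 10.5% of all genes had no overlap in this comparison (5.55% higher, 4.99% lower). The share without the library labelled KO TAC 4 was not computed. The Pi16 difference was 0.45 in the animals starting with 25 and 0.07 in those starting with 3. Meox1 (0.57, SE 0.22, adjusted p = 0.168) and Dpep1 (-0.26, SE 0.14, adjusted p = 0.352) did not pass. The other 6 members lay between 0.00 and 0.11 in size, with Thy1 nearest to 0. Leaving out the library labelled KO TAC 4 gave 0.34 for Pi16 (adjusted p = 0.215), 0.54 for Meox1 (0.251) and -0.24 for Dpep1 (0.479), and the other 6 did not pass.

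The interaction, which tests whether TAC acted differently in the 2 genotypes, passed for none of the 10 members, against 0.0109% of all genes. Cthrc1 had the largest value (log2 2.59, SE 0.77, unadjusted p = 0.00340, edgeR adjusted p = 0.241), then Meox1 (0.57, SE 0.32, adjusted p = 0.534). Dpep1 was at -0.22 and Pi16 at 0.16. No member passed without the library labelled KO TAC 4 either, where Cthrc1 was at 2.62 (adjusted p = 0.245). Over all genes 2024 had an unadjusted p under 0.05 in edgeR, and DESeq2 called 132. DESeq2 gave no adjusted p for Cthrc1 here and called none of the other members. The larger number of members called in KO hearts (8 against 3) is therefore not shown to be a difference between genotypes.

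**Figure D4:**
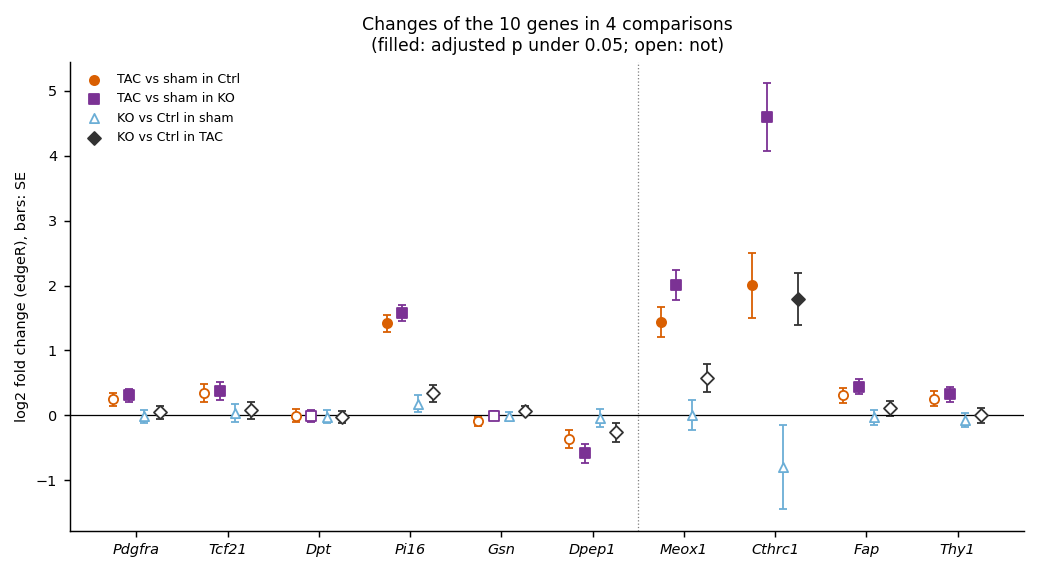
Log2 fold changes of the 10 genes with their SE in 4 comparisons, filled where the adjusted p was under 0.05; the dotted line parts the 6 resident from the 4 activation genes. Pi16, Meox1 and Cthrc1 rose with TAC in both genotypes, and the only filled point for KO against Ctrl is Cthrc1 after TAC (1.80).

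A pair of wider lists set the members among other fibroblast genes. They were written from general knowledge of these cells, but with earlier results of these data known, so their counts only describe. The listed genes were measured in whole tissue, and the part of other heart cells in their changes was not tested. Of 30 other resident fibroblast genes, TAC in Ctrl hearts raised 15 and lowered 2, where 10.4% of all genes were higher and 9.60% lower, and the median log2 fold change was 0.27 against 0.00 over all genes, a value that the scaling keeps near 0. In KO hearts 17 rose and 2 fell (median 0.35), where 17.8% of all genes were higher and 16.5% lower. Without the library labelled KO TAC 4, 16 rose and 2 fell in KO hearts. Among the 6 resident members 1 rose in Ctrl hearts, and 3 rose and 1 fell in KO hearts.

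The largest rise among them was in Mfap5, a microfibril protein gene, which rose by 2.06 in Ctrl and 2.50 in KO hearts (log2), and the PDGF receptor-like gene Pdgfrl by 1.32 and 2.28. The collagen genes Col14a1 (1.29 and 2.08) and Col15a1 (1.27 and 1.63) followed. The 2 that fell were the ferritin receptor gene Scara5 (-0.94 and -1.40) and Clec3b, encoding tetranectin (-0.60 and -0.88). In KO hearts Scara5 and Clec3b, like Dpep1, were lower in every TAC library than in every sham library, as were 16.6% of all genes. Scara5 and Clec3b were so in Ctrl hearts too (9.97% of all genes), where Dpep1 overlapped.

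Of 35 other activation genes, 28 rose and 1 fell in Ctrl hearts (median log2 fold change 1.22), and 32 rose and 1 fell in KO hearts (median 2.01), against the same 10.4% and 9.60% of all genes in Ctrl and 17.8% and 16.5% in KO hearts. Without the library labelled KO TAC 4, 33 rose and 1 fell in KO hearts. The cartilage intermediate layer protein gene Cilp rose by 3.43 and 4.75, the proteoglycan gene Fmod by 3.30 and 5.25, and the latent TGF-beta binding protein gene Ltbp2 by 3.22 and 4.81. Lrrc15, often used as a mark of activated fibroblasts in tumors, fell by 0.81 and 0.86. Acta2, the smooth muscle actin gene of contractile fibroblasts, did not pass in either genotype (log2 change -0.40 and 0.08). Meox1 lay near the medians of this list, at 1.44 and 2.01, while Fap (0.31 and 0.44) and Thy1 (0.26 and 0.33) lay below them.

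Between KO and Ctrl hearts after TAC, 3 of 30 other resident genes were higher and none lower (median 0.18): Pdgfrl (0.93, edgeR adjusted p = 0.0154), Col14a1 (0.63, 0.00753) and Cygb (0.30, 0.0325), which encodes the globin cytoglobin. Of 35 other activation genes, 16 were higher and none lower (median 0.60), against 1.36% of all genes higher. The largest differences were in the matrix genes Comp (1.63, adjusted p = 0.0194), Fmod (1.58, 0.0422), Thbs4 (1.43, 0.0104) and Ltbp2 (1.27, 0.0329). With a term for animal numbers starting with 25 none of these 19 genes passed, and in the 8 TAC libraries alone 5 of the activation genes did. In sham hearts and in the interaction 0 of the 65 genes passed in edgeR, and DESeq2 called 2 resident and 8 activation genes for the interaction. Over the same TAC hearts 2 of the 8 cardiomyocyte markers were lower in KO and none higher, and 1 of 8 macrophage markers was lower. Without the library labelled KO TAC 4, 3 resident and 14 activation genes passed. Of those named, Fmod did not (1.65, adjusted p = 0.0581), while Comp (1.69), Thbs4 (1.44), Ltbp2 (1.32), Pdgfrl (1.02), Col14a1 (0.61) and Cygb (0.32) did.

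**Figure D5:**
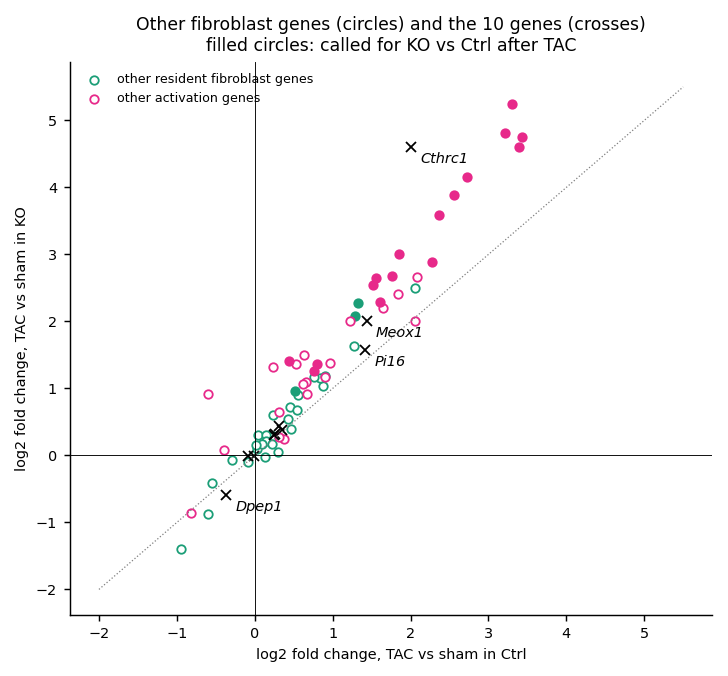
Log2 fold change of TAC against sham in KO (vertical) and Ctrl hearts (horizontal) for 30 other resident and 35 other activation genes (circles) and the 10 members (crosses); filled circles passed for KO against Ctrl after TAC, a comparison that shares the TAC libraries of both axes. Cthrc1 lies at 2.01 and 4.60, farther above the line of equal change than the other members.

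Other cell types also moved with TAC. Summed levels of 8 macrophage markers ranged from 145 to 190.0 CPM in sham hearts and from 195 to 258 CPM after TAC, with 3 higher in Ctrl and 6 in KO hearts. Of 8 smooth muscle and pericyte markers, cells that share contractile genes with activated fibroblasts, Cnn1, Cspg4 and Pdgfrb rose and Abcc9 fell in both genotypes. Their summed level was 999 to 1118 CPM in sham and 857 to 998 CPM after TAC, and Abcc9 alone went from a mean of 415 to 266 CPM in Ctrl hearts and from 381 to 222 in KO hearts. Rgs5, the other marker of high level, went from 484 to 473 and from 473 to 485 CPM and passed in neither genotype. The lower sum is thus mainly that of Abcc9. Of 8 endothelial markers, Vwf rose in KO hearts (log2 change 0.48, adjusted p = 0.010), none passed in Ctrl hearts, and the sum lay between 642 and 826 CPM. Of 3 cartilage and tendon markers tested, Acan and Tnmd rose in both genotypes from levels near 0, Acan to 0.313 CPM in Ctrl TAC and 0.529 in KO TAC, and Tnmd to 0.268 and 0.677 CPM (means). Of 4 B cell markers, all rose in KO hearts and none passed in Ctrl hearts. Mesothelial and epicardial markers, a type that shares Tcf21 in development, summed to 3.51 to 13.6 CPM, and 0 of 4 tested passed, and Lrrn4 of this list was at 0 in all KO sham libraries. The part of these cells in the members' changes was not tested.

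The genes whose pattern over the 16 libraries was most like each member were found by the root mean square difference of log2 CPM, after removing each gene's mean, among 12284 genes. Pi16 was nearest to Emp1 (0.129), Col16a1 (0.167) and Adamts2 (0.172), against its own variation of 0.782. Meox1 (own variation 0.939) was nearest to Fstl1 (0.211), Vcan (0.218) and Bgn (0.218), which encode secreted matrix and signalling proteins. Cthrc1 (own variation 1.72) was nearest to Dio2 (0.670), Postn (0.684) and Dkk3 (0.720).

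Of all these neighbours, Postn alone is in the fibroblast lists. Pdgfra was nearest to Wdfy1, Rasa3 and Lamc1 (0.0841 to 0.0975, own variation 0.198), Tcf21 to Rab20, Shisa5 and Syk (0.117 to 0.132, own 0.256) and Dpep1 to Plbd1, Tesc and Echdc3 (0.159 to 0.162, own 0.324). Fap was nearest to Lsp1, Ifitm3 and Snx10 (0.101 to 0.109, own 0.235) and Thy1 to Gas2l1, Rab43 and Csk (0.0890 to 0.117, own 0.208). These are descriptions over libraries that share the groups and the TAC response.

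All 10 are protein-coding genes, with positions from GRCm38 (GENCODE M21). Pdgfra is at chromosome 5, 75152292 to 75198215, Tcf21 at chromosome 10, 22817281 to 22820174, and Dpt at chromosome 1, 164796644 to 164824266. Pi16 is at chromosome 17, 29317680 to 29330593, Gsn at chromosome 2, 35256380 to 35307892, and Dpep1 at chromosome 8, 123186242 to 123201812. Meox1 is at chromosome 11, 101877510 to 101894374, Cthrc1 at chromosome 15, 39076932 to 39087121, Fap at chromosome 2, 62500943 to 62574075, and Thy1 at chromosome 9, 44043384 to 44048579. Counting by strand was not stated, so reads could be shared where exons overlap. Pi16 shares 222 exon bases with an overlapping gene that held 46 counts in all 16 libraries, and Pdgfra shares exon bases with 3 small genes that held 8 to 21 counts. The other 8 members share none.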

How the data were processed

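RNA of 16 heart apices was sequenced as poly(A)-selected, paired reads of 150 bases. The authors deposited read counts per gene, not normalized. Per the labels, their processing notes name cutadapt 2.3, FastQC, HISAT2 2.1.0, edgeR 3.26.1 and GRCm38, and the counter, annotation and strand setting are not given in the sources used here. Of 55487 genes, 55227 matched GENCODE M21 by identifier. Totals of 53169437 to 79404714 counts set the counting precision. Intervals cover counting error only.

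Counts were scaled by TMM and filtered with filterByExpr, which left 18275 genes. One edgeR 4.0.16 quasi-likelihood model (robust, R 4.3.3) with a mean per group gave 5 contrasts, called at an adjusted p under 0.05 (Benjamini-Hochberg over all genes tested). SE is the log2 fold change over the square root of F. The p-values measure only the spread between these libraries. Columns were matched to samples by animal number, and replicates were numbered in sample order. The script was tested on simulated data. Alternatives were RLE size factors, DESeq2 1.42.0, other filters, an adjusted p under 0.01, animal-number terms, the 8 libraries compared, each library left out, and Ctrl TAC 2 and KO TAC 4 left out together.

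The members and lists were chosen with earlier results of these data known. Named were all 10 members, the 4 largest rises and falls among called genes of each wider list (one result under this rule is not reported here), and the 3 genes most like each member called in a TAC comparison, among those with average log2 CPM of at least 0. Acta2, the named cell type markers and the promoters of Pdgfra and Dpep1 were chosen after their values were seen.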

Additional observations from a re-analysis of the deposited data

Results flagged for a closer look

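In KO sham, replicate 3 had the highest Tcf21 level, 5.94 CPM, and its gap to the next library was 0.840 of the group's range, above the critical value of Dixon's test at the 95% level. In the same group, replicate 4 had the highest Dpep1 level, 52.6 CPM, with a gap of 0.865 of the range. These were 2 of 40 groups of 4 libraries examined, and chance alone flags about 1 in 20.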

How the results depend on the processing

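Of the 10 members, 3 passed for TAC in Ctrl hearts, and 5 did with a term for animal numbers starting with 25 or without Ctrl TAC 2 and KO TAC 4 together. DESeq2 called 4, adding Dpep1 (lower, adjusted p = 0.0370), and at least 10 counts in every library left 2, since Cthrc1 was not tested. For TAC in KO hearts 8 passed, and 5 did at an adjusted p under 0.01. Cthrc1, the 1 member that passed for KO against Ctrl after TAC, gave way to 0 with at least 10 counts in every library (which drops Cthrc1), at an adjusted p under 0.01, with the term for numbers starting with 25, in the 8 libraries alone, and without Ctrl TAC 2 and KO TAC 4. Cthrc1 passed there with RLE size factors, no filter, the term for numbers starting with 33 and DESeq2. Leaving out 1 library gave 3 to 5, 5 to 8 and 0 to 1 members in these comparisons. Pi16, Meox1 and Cthrc1 kept their TAC calls in both genotypes, and Dpep1 and Fap in KO hearts, in 16 of 16 such analyses. For Cthrc1 only a rise with TAC could be called.

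For KO against Ctrl after TAC, other resident genes went from 3 to 1 (adjusted p under 0.01), 0 (term for 25) and 10 (DESeq2), and from 1 to 8 with 1 library left out. Other activation genes went from 16 to 10 (no filter), 1 (adjusted p under 0.01), 0 (term for 25), 5 (8 libraries) and 9 (without both libraries), and from 5 to 19 with 1 library left out. For the interaction, DESeq2 called 2 and 8 of them, and leaving out 1 library gave 0 to 1 and 0 to 3. All genes called for KO against Ctrl after TAC numbered 489, against 285 (no filter), 19 (adjusted p under 0.01), 12 (term for 25), 154 (8 libraries), 109 (without both), 1183 (DESeq2) and 63 (without Ctrl TAC 2). For TAC in Ctrl hearts 3652 became 2076 at an adjusted p under 0.01. The cause was not tested.

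Changes of sign were near 0, and none passed in either analysis. For TAC in Ctrl hearts, Dpt was 0.0746 (term for 25), 0.00834 (term for 33), 0.0836 (without both) and -0.0882 to 0.0835 with 1 library left out, and Gsn 0.0256 (term for 25). For TAC in KO hearts, Dpt was 0.00561 (no filter), 0.0188 (term for 25), 0.0284 (term for 33) and -0.0559 to 0.0461 with 1 library left out. Gsn there was 0.00893 (no filter), 0.0322 (term for 25), 0.0318 (term for 33), 0.0212 (without both) and -0.0507 to 0.0214. For KO against Ctrl after TAC, the term for 25 gave -0.0507 for Pdgfra, -0.110 for Tcf21 and -0.00613 for Gsn. Pdgfra was -0.00237 and Thy1 0.125 without both libraries, and Thy1 0.00952 with no filter. With 1 library left out, Pdgfra ranged from -0.0207 to 0.142, Dpt from -0.116 to 0.0554 and Thy1 from -0.0794 to 0.0729.

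No paired analysis was possible because the labels give no replicate numbers shared between groups. Cthrc1 had 0 to 9 counts in each sham library, which limits the precision of its fold changes.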
